A study of Mus musculus with 4 samples.

Results

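Gene-end peaks are the H3K27me2 peaks that the deposited annotation placed in a 3' UTR, the untranslated stretch after the stop codon, or in the Downstream class, within 3 kb past a transcript's end. They were chosen by that annotation alone, and they made up 2386 of the 56036 peaks in the 4 peak lists. The Ezh2m+/p+ zygotes had 290 of 5744 maternal and 702 of 17863 paternal peaks of this kind. The Ezh2m-/p+ zygotes had 424 of 9606 maternal and 970 of 22823 paternal ones.

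The zygotes were made in vitro, with C57BL/6J eggs and sperm of PWK/PhJ males, and were taken at PN5, the last pronuclear stage, in which the maternal and the paternal genome still lie in separate nuclei. Mothers of the Ezh2m+/p+ zygotes were Ezh2 fl/fl, and mothers of the Ezh2m-/p+ zygotes were Ezh2 fl/fl; Gdf9-Cre. The Gdf9 promoter drives Cre in oocytes, where it removes exon 4 of Ezh2, and the sperm carried an intact allele in both groups. H3K27me2 was mapped by ULI-NChIP-seq, native chromatin immunoprecipitation for very few cells, with 1 library and 1 input library per genotype. Without replicates the spread within a genotype is unknown, so no test was run. The genotype of a list was read from the list's name, and the peak lists hold no read counts in which the deletion of exon 4 could be checked.

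H3K27me2 is a repressive chromatin mark that Polycomb repressive complex PRC2 places through its catalytic subunits EZH1 and EZH2. It lies between the mono-methylated state, common in transcribed genes, and the tri-methylated state, found at silent developmental genes. In differentiated cells it covers wide stretches of silent chromatin between and within genes. The 3' UTR ends at the site where the transcript is cleaved and polyadenylated, usually a short way past a hexamer such as AATAAA.

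Gene ends under recurrent peaks are printed here as examples. They are the last 30 bases of the outermost protein-coding transcript of genes whose end lay inside a gene-end peak of both genotypes. The 4 such pairs with the largest smaller fold were taken in each parental genome. Each is written 5′ to 3′ on the strand of the gene, from the RefSeq GRCm38 (mm10) assembly, and capitals mark AATAAA or ATTAAA. The first 4 belong to maternal and the last 4 to paternal pairs.
Ehd3: atgttaatacaacatatttaccctttggta
Il2ra: ataagctaaAATAAAccatttcttacccat
Armc2: cgcctctgAATAAAttatttaaaaaccaaa
Gkap1: gtcAATAAAattaatttactcttccaagaa
4930558K02Rik: tatAATAAAtgacagccttctttttataag
Smim10l1: ctgtgatctaaAATAAAgcttgtctccttt
Olfr1408: catagtttatattatatgtttaacacatag
Krt2: ctctgcatAATAAActtcatttgcaattga

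These windows lie at chr17:73832065-73832094 (Ehd3, + strand), chr2:11693164-11693193 (Il2ra, + strand), chr10:41914990-41915019 (Armc2, - strand) and chr13:58233346-58233375 (Gkap1, - strand). The paternal ones lie at chr1:161942086-161942115 (4930558K02Rik, - strand), chr6:133110868-133110897 (Smim10l1, + strand), chr1:173128049-173128078 (Olfr1408, - strand) and chr15:101810689-101810718 (Krt2, - strand). AATAAA or ATTAAA stood on the gene's strand in these last 30 bases at 62.9% of all 21670 protein-coding gene ends, AATAAA at 51.3% and ATTAAA at 13.3%, with both in 361 windows. At the ends covered by gene-end peaks the share with either hexamer was 38 of 70 in the Ezh2m+/p+ maternal list, 132 of 192 in the Ezh2m+/p+ paternal, 71 of 105 in the Ezh2m-/p+ maternal and 191 of 283 in the Ezh2m-/p+ paternal list (54.3%, 68.8%, 67.6% and 67.5%). The hexamers can overlap in a window, and a window with both is counted once in the share with either.

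In the Ezh2m+/p+ zygotes the gene-end class took a larger share of the maternal than of the paternal peaks. The share was 5.05% (95% Wilson interval 4.51 to 5.65, counting error only) of the maternal and 3.93% (3.65 to 4.22) of the paternal peaks, a difference of 1.12 percentage points. The maternal share was the higher one on 14 of 20 chromosomes. In the Ezh2m-/p+ zygotes the shares were 4.41% (4.02 to 4.84) and 4.25% (4.00 to 4.52), a difference of 0.164 points with overlapping intervals, and the maternal share was higher on 10 of 20 chromosomes. The autosomes alone gave 0.996 points in Ezh2m+/p+ zygotes and -0.0294 in Ezh2m-/p+. On the X the maternal share was 3 of 42 peaks in Ezh2m+/p+ and 8 of 119 in Ezh2m-/p+, against 4 of 576 and 6 of 985 paternal peaks.

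The share in Ezh2m-/p+ minus that in Ezh2m+/p+ zygotes was -0.635 points for the maternal and 0.320 points for the paternal peaks, and in both the counting intervals of the genotypes overlapped. Peaks in 3' UTRs made up most of the class, with 226, 546, 344 and 758 in the order Ezh2m+/p+ maternal, Ezh2m+/p+ paternal, Ezh2m-/p+ maternal and Ezh2m-/p+ paternal, the order kept below. The Downstream class held 64, 156, 80 and 212 peaks.

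The direction turned when all peaks over an outermost gene end were counted, Promoter peaks included. With peak centres at a gene end, given further on, it did not turn. Peaks that lay over the outermost end of a protein-coding gene, whatever their class, made up 2.14% (1.80 to 2.55) of the maternal and 2.69% (2.46 to 2.93) of the paternal peaks in Ezh2m+/p+ zygotes. In Ezh2m-/p+ zygotes they made up 1.84% (1.59 to 2.13) and 2.92% (2.71 to 3.15), so here the paternal share was the higher one. The annotation called 49 of these 123 maternal and 272 of these 480 paternal peaks of Ezh2m+/p+ zygotes Promoter, and 70 of 177 and 370 of 667 in Ezh2m-/p+, and those are not among the gene-end peaks.

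Peak length moved with these shares. The Ezh2m+/p+ maternal peaks were the longest, with a median of 2999 bp for gene-end and for other peaks, against 1999 and 1799 bp in the paternal list of the same library. In the Ezh2m-/p+ zygotes the medians were 2399 and 2199 bp (maternal) and 2199 and 1999 bp (paternal). A peak counts as a 3' UTR peak when any part of it touches one, unless it also reaches a promoter or 5' UTR, which come first in the annotation. Among peaks over 2000 and up to 4000 bp the gene-end share was 5.13%, 4.12%, 4.79% and 4.40% in the 4 lists, and among peaks over 4000 bp it was 5.35%, 6.44%, 5.04% and 5.78%. The maternal share was thus the higher one up to 4000 bp and the lower one above, with overlapping counting intervals in each length class. When only the centre of a peak had to lie at a gene end, the shares were 3.80%, 3.53%, 3.66% and 3.65%. The maternal minus paternal difference then fell to 0.263 points in Ezh2m+/p+ zygotes and 0.0146 points in Ezh2m-/p+.

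**Figure D1:**
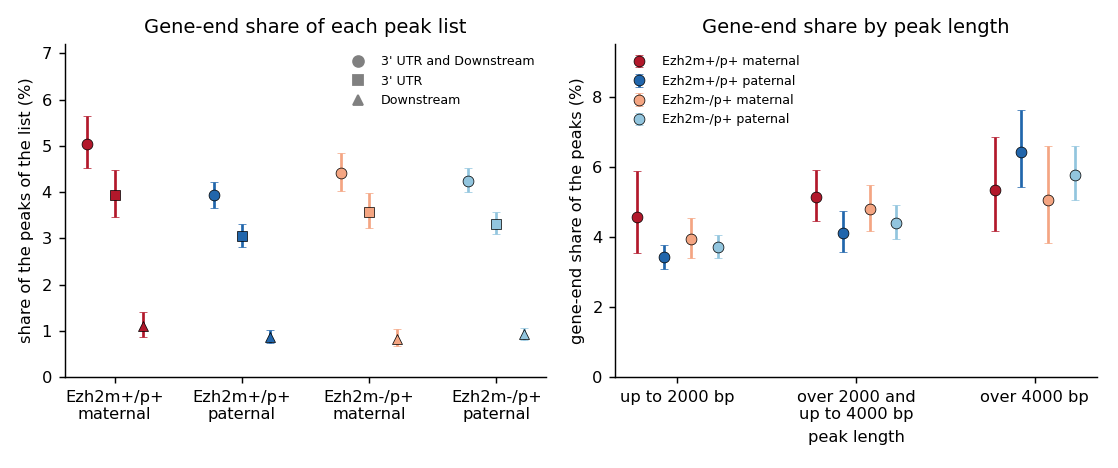
Share of each list's peaks (%) that lie at gene ends, for both classes together and each class (left), and by peak length (right). Points are the shares of 1 list and bars 95% Wilson intervals. The Ezh2m+/p+ maternal list stands highest on the left at 5.05%, while over 4000 bp the Ezh2m+/p+ paternal list is highest at 6.44%.

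Around all 21670 protein-coding genes, maternal peaks were sparser at the gene end than on either side. In Ezh2m+/p+ zygotes 134 ends (0.618%) lay under a maternal peak, against 199 of the positions 20 kb before the end and 200 of those 20 kb after it (0.918% and 0.923%). In Ezh2m-/p+ zygotes 187 ends (0.863%) did, against 264 and 287 (1.22% and 1.32%). The paternal lists were flatter. They covered 527 ends (2.43%) against 532 and 555 positions in Ezh2m+/p+ zygotes, and 753 ends (3.47%) against 763 and 793 in Ezh2m-/p+ zygotes. Of the gene starts, 602 (2.78%) and 912 (4.21%) lay under a paternal peak and 247 (1.14%) under a maternal peak of Ezh2m-/p+ zygotes, each above the count of ends. The Ezh2m+/p+ maternal peaks covered 126 starts (0.581%), below their count of ends. Positions of neighbouring genes can fall under the same peak, so these counts are not independent.

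**Figure D2:**
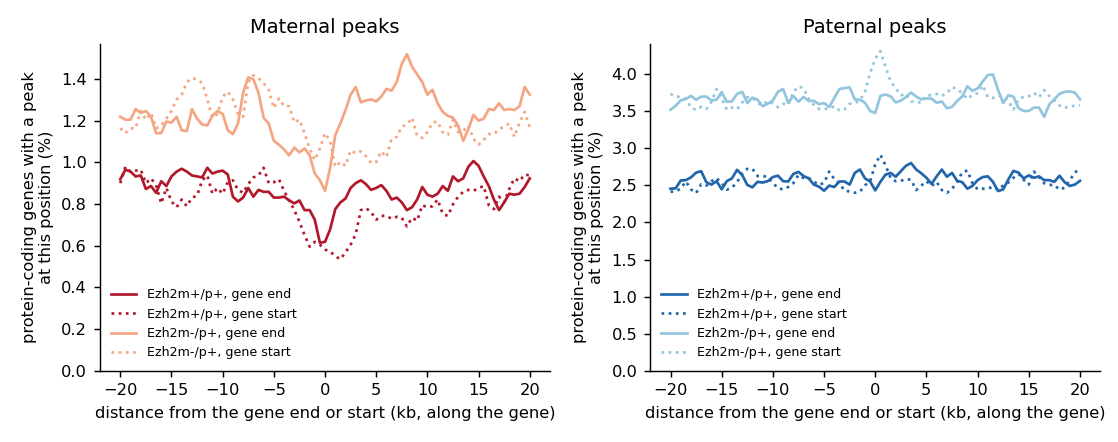
Share of 21670 protein-coding genes (%) with a peak at each position within 20 kb of the gene end (solid) or start (dotted), along the direction of the gene. The maternal curves fall at the end, to 0.618% and 0.863%, and the paternal curves stay near 2.43% and 3.47% there, with a rise at the start.

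The listed gene of a peak is the gene with the nearest start site, and often not the gene whose end was marked. With the GENCODE vM21 annotation each peak was assigned to the gene whose 3' UTR it overlapped most, or whose transcript end was nearest for Downstream peaks. This gene was the listed one for 65.2%, 67.0%, 63.0% and 66.1% of the gene-end peaks. Genes below are named by this assignment. Protein-coding genes took 283, 681, 419 and 950 of the peaks.

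A 3' UTR annotation did not always mean the end of a gene. Of the 3' UTR peaks, 63, 128, 93 and 190 (27.9%, 23.4%, 27.03% and 25.1%) touched no 3' UTR of a transcript typed as protein-coding. Their transcripts are called decay transcripts here, after those marked for nonsense-mediated decay, in which an early stop codon turns internal exons into 3' UTR. The decay mark itself was not checked, and the immunoglobulin gene Ighg2b is among them. Over both classes, among the gene-end peaks assigned to a protein-coding gene, the outermost end of the gene lay inside the peak for 24.7%, 28.2%, 25.1% and 29.8%. The peak's centre was within 3 kb of that end for 50.9%, 56.0%, 56.7% and 54.8%, and more than 10 kb before it for 20.5%, 19.3%, 22.2% and 19.2%.

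**Figure D3:**
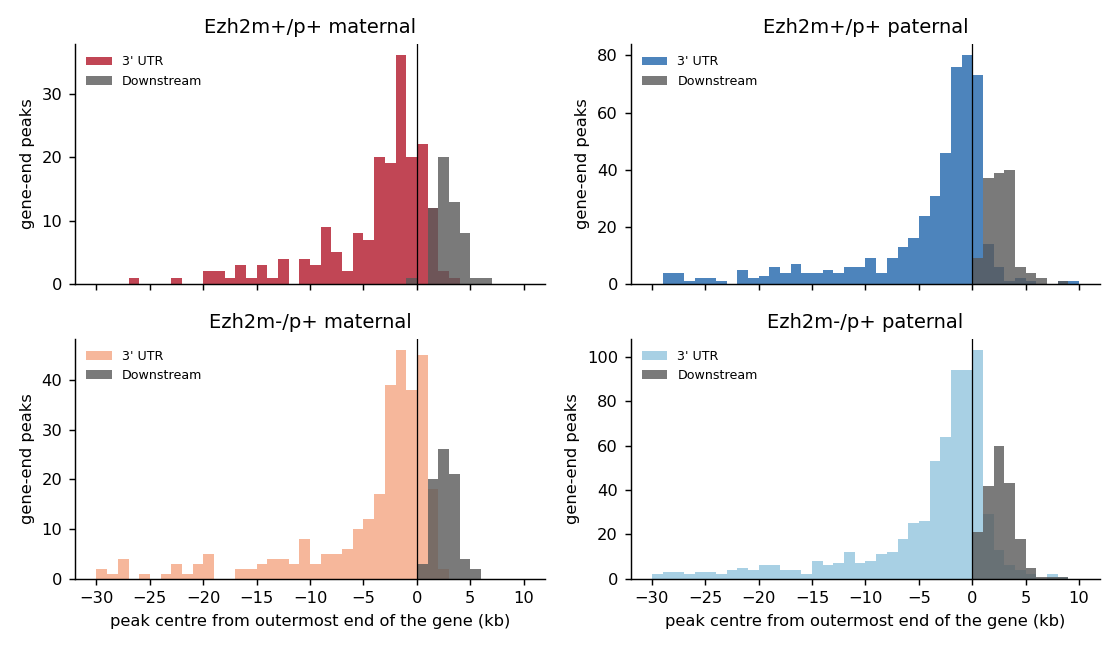
Number of gene-end peaks by the distance (kb, bins of 1 kb) of the peak's centre from the outermost end of its gene, negative inside the gene, in the 4 lists. Most centres lie within a few kb of the end, with a tail into the gene, and 35, 61, 46 and 89 peaks farther than 30 kb inside are beyond the axis.

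The marked genes were longer at the median than all protein-coding genes. Their median length was 59332, 35454.5, 50221 and 38051 bp, against 16905 bp for all protein-coding genes, and their median exon number 11, 10, 11 and 10, against 7. Peaks that also reach a promoter are left out of the class, so ends close to a gene start are mostly missing. The part of this in the difference was not tested. Genes with the end of a gene on the other strand within 3 kb of their own end were fewer among the marked genes, 12.1%, 9.11%, 10.7% and 7.01% against 17.2% of all. A peak within 3 kb of the gene's own start was found for 11.0% and 11.4% of the genes in the maternal lists, and for 45.0% and 43.7% in the paternal ones. The gene-end peaks themselves were not taken out of this count. Over all protein-coding genes these shares were 2.97% and 5.13% (maternal) and 8.28% and 10.9% (paternal).

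In sequence the gene-end peaks were richer in G and C than the lists they came from, with medians of 46.8%, 46.1%, 47.1% and 45.5% against 45.5%, 44.7%, 45.6% and 44.0% of all peaks. Promoter peaks had 47.2%, 47.7%, 47.7% and 47.0%. The observed over expected ratio of CpG was low everywhere, 0.195, 0.204, 0.197 and 0.198 against 0.179, 0.176, 0.179 and 0.172. A ratio over 0.6, typical of CpG islands, was reached by 0, 2, 1 and 2 gene-end peaks (0%, 0.285%, 0.236% and 0.206%), against 18, 164, 78 and 217 of all peaks (0.313%, 0.918%, 0.812% and 0.951%). All peaks include the Promoter class, which the annotation keeps apart from gene ends and whose median ratios were 0.201, 0.2218, 0.2081 and 0.2215. A count without Promoter peaks was not made. Repeats, the bases in lower case in the reference assembly, took a median of 16.6%, 16.4%, 14.9% and 17.5% of the 3' UTR peaks and 26.1%, 24.6%, 25.1% and 24.4% of the Downstream peaks.

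In fold, the ratio of H3K27me2 to input reads that the authors' peak caller gave, gene-end peaks resembled the other peaks of their list. Their medians were 7.12, 36.1, 23.7 and 13.8, and those of the other peaks 7.37, 36.1, 23.7 and 15.8. The maternal median was thus higher and the paternal one lower in Ezh2m-/p+ than in Ezh2m+/p+ zygotes, for gene ends as for the rest. The folds did not form a continuous scale. They lay on steps, with 471 distinct values over the 17863 Ezh2m+/p+ paternal peaks, of which 3350 had the value 36.1, so the equal medians of that list are a tie at its commonest step. In the Ezh2m+/p+ maternal list no gene-end peak lay between 17.1 and 29.5, with 199 below and 91 above, and only 30 of all 5744 peaks lay in that range. The cause was not tested. Counts of pairs with a higher or lower fold, given further on, take differences of any size and describe these lists alone.

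The strongest maternal gene-end peak of the Ezh2m+/p+ zygotes lay in a 3' UTR of Efcab11 (fold 76.4). Next came Tsga10, a protein of the sperm tail (67.0), Spindoc, a partner of the histone reader Spindlin (65.7), Pogk (65.7) and Shld2, a subunit of the shieldin complex in double-strand break repair (64.3). The Spindoc peak at chr19:7352601-7355999 was centred 222 bp before the end of the gene, and the list named Mark2 for it. The Efcab11, Tsga10 and Pogk peaks were centred 26555, 76524 and 12878 bp before the outermost ends, at 3' UTRs of shorter transcripts. The longest peak of the list, 20799 bp, began downstream of Csf2, the gene of the cytokine GM-CSF, and had a fold of 7.29.

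In the Ezh2m-/p+ maternal list Lrsam1, a ubiquitin ligase, had a fold of 94.1 in a 3' UTR of decay transcripts, and Rgl1, an exchange factor for Ral GTPases, had 76.5. Garem1 followed with 65.0, Tctn3, a protein of the ciliary transition zone, with 62.7, and Foxr1, a forkhead factor, with 62.0. Rgl1 carried 3 gene-end peaks within 60599 bp, the most in that list. The longest gene-end peak, 15999 bp, touched Frmpd2 with a fold of 5.42.

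Paternal gene-end folds reached higher values. The steps differ between the lists, with a commonest fold over all peaks of 5.03, 36.1, 24.5 and 63.0. How far folds of different lists can be compared was not tested. In Ezh2m+/p+ zygotes Ubox5, a U-box ubiquitin ligase, led the gene-end peaks with 355 at chr2:130590201-130593999, a peak that the list assigned to Avp. Ascc2, a subunit of a complex in alkylation repair, had 331, followed by the zinc finger genes Zbtb37 with 265 and Zfp691 with 229 and by the solute carrier Slc35f4 with 217. The longest gene-end peak, 24399 bp, lay over the 3' UTR of Pafah2 with a fold of 11.6.

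In Ezh2m-/p+ zygotes 4930558K02Rik led the paternal gene-end peaks with 433. Ctdp1, a phosphatase of the RNA polymerase II tail, had 378, and Prkce, a protein kinase C, had 331. The longest gene-end peak of all lists, 44399 bp, covered Slc7a8, an amino acid transporter, with a fold of 12.4.

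Several paternal genes carried a row of gene-end peaks. Tmem260 had 6 in each genotype, between folds of 6.77 and 193 in Ezh2m+/p+ and between 7.25 and 24.3 in Ezh2m-/p+ zygotes. Within the stretch they spanned, they covered 16794 of 44199 bp in the first and 49594 of 54799 bp in the second genotype. Adamts18, a matrix protease, had 5 and 7, Camk2d, a calcium-dependent kinase, 4 and 5, and Dnah3, a dynein heavy chain, 8 in Ezh2m-/p+ zygotes. All of these peaks were annotated to 3' UTRs, and since they share a gene they are not separate cases. Genes with more than 1 gene-end peak numbered 10, 77, 14 and 113 of 280, 592, 409 and 806.

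Recurrence between the genotypes was low in the maternal and high in the paternal genome. Of the 290 maternal gene-end peaks of Ezh2m+/p+ zygotes, 33 overlapped a maternal peak of Ezh2m-/p+ zygotes by at least 1 bp, 11.4% (8.22 to 15.6), where 9.47% of all maternal peaks did. Of the 702 paternal ones, 505 overlapped, 71.9% (68.5 to 75.1), where 66.1% of all paternal peaks did. Read from the other side, 32 of 424 maternal (7.55%, against 5.78% of all) and 486 of 970 paternal gene-end peaks (50.1%, against 45.7%) of Ezh2m-/p+ zygotes lay over a peak of Ezh2m+/p+. Each maternal share lay within its counting interval of the background, and the paternal ones lay above it.

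By class, 404 of 546 paternal 3' UTR peaks (74.0%, 70.2 to 77.5) and 101 of 156 Downstream peaks recurred (64.7%, 56.97 to 71.8), with overlapping intervals. The other classes ranged from 78.3% for 5' UTR, 71.2% for exon and 70.8% for promoter peaks to 64.1% for intron and 63.5% for distal intergenic peaks. Paternal recurrence rose with peak length. Paternal gene-end peaks of up to 2000 bp recurred in 57.6% (52.6 to 62.4) of cases against 54.9% of all such peaks, those over 2000 and up to 4000 bp in 84.7% (78.8 to 89.1) against 80.5%, and those over 4000 bp in 96.8% against 96.8%. Within each length class the paternal background was inside the interval of the gene-end peaks. Maternal gene-end peaks recurred in 17.9% (10.00 to 29.8), 9.66% (6.12 to 14.9) and 10.3% (4.83 to 20.8) in the same order of length, against 9.28%, 8.69% and 12.2% of all maternal peaks. Recurrent paternal gene-end peaks had a median length of 2399 bp, and the others 1399 bp. The paternal gene-end share also depended on the threshold: at a fold over 10 in both lists it was 47.3%, and with a reciprocal overlap of 50% it was 36.3%. The share over all paternal peaks was not computed at these thresholds, so no background stands beside them.

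**Figure D4:**
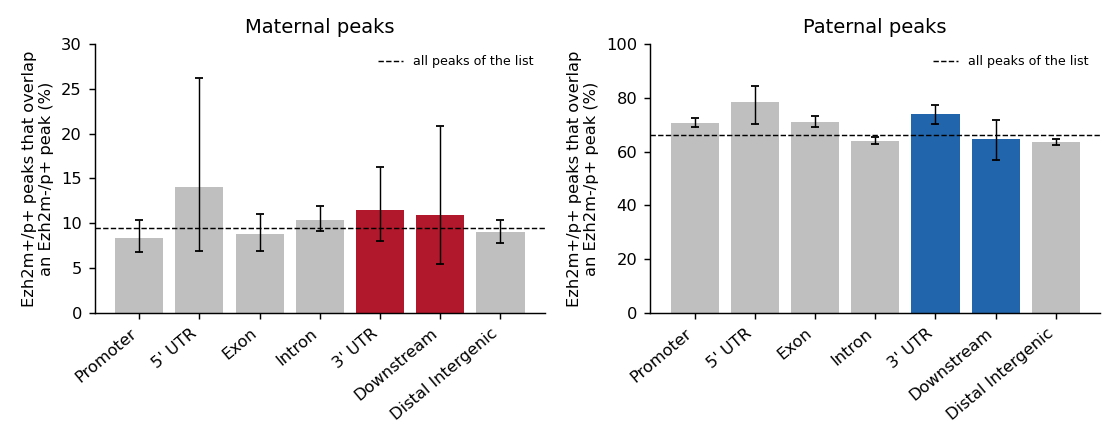
Share of Ezh2m+/p+ peaks (%) that overlap an Ezh2m-/p+ peak of the same parental genome, by annotation, with 95% Wilson intervals; gene-end classes are coloured and the dashed line gives all peaks of the list. The axes differ: 3' UTR peaks stand at 11.5% in the maternal and 74.0% in the paternal genome, against lines at 9.47% and 66.1%.

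Most recurrent gene-end peaks met a gene-end peak in the other genotype as well. In the maternal genome 28 of the 33 did, and all 28 pairs lay on the same gene. In the paternal genome 401 peaks formed 409 such pairs, 401 of them on the same gene. The other partners of the paternal peaks were mostly promoter peaks (81 of 548 overlaps). Both peaks lay over the outermost end of the gene in 5 maternal and 105 paternal pairs.

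Among the maternal pairs, Stard4, a sterol carrier, had the largest smaller fold, with 42.9 in Ezh2m+/p+ zygotes and 35.9 in Ezh2m-/p+. Ehd3, a protein of endocytic recycling, had 33.5 and 32.1, with both peaks over its end. Il2ra, the alpha chain of the interleukin receptor on T cells, had 30.8 and 26.8, centred 7 bp after and 193 bp before its end. The lists named Il15ra for both peaks of Il2ra.

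Dip2b and Tnfrsf8, the gene of the lymphocyte receptor CD30, each had 45.6 and 32.1, and Plekhh2 had 38.9 and 27.5. Armc2, needed for the sperm flagellum, and Vsx1, a homeobox gene of the retina, each had 50.9 and 23.7. In 8 of the 28 maternal pairs both folds were at least 20, in 7 both were below 20, in 12 only the Ezh2m-/p+ fold reached 20 and in 1, Numb, only the Ezh2m+/p+ fold did (37.5 against 5.45). Numb was named after its values were seen.

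Among the paternal pairs 4930558K02Rik led with 162 in Ezh2m+/p+ zygotes and 433 in Ezh2m-/p+. Nek10, a NIMA-related kinase, had 96.3 and 110, Serpina1f, a serpin, 108 and 94.6, Cdc42ep3, an effector of Cdc42, 84.3 and 94.6, and Hdac4, a class II histone deacetylase, 84.3 and 94.6. The peaks of the last 3 lay in the Downstream class in both genotypes. Fignl1, an ATPase of recombinational repair, had 84.3 and 142, Tmtc2, an O-mannosyltransferase, 84.3 and 173, and Methig1 78.2 and 134.

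Over all 28 maternal pairs the fold was higher in Ezh2m-/p+ zygotes in 15 and lower in 13, with a median log2 ratio of Ezh2m-/p+ over Ezh2m+/p+ of 0.10. Over all 409 paternal pairs it was higher in Ezh2m-/p+ zygotes in 178 and lower in 231, and the median log2 ratio was -0.41. The Ezh2m-/p+ peak was the longer one in 283 pairs and the shorter in 99. Folds of a pair were weakly related across pairs, with Spearman's rho of 0.124 over 28 maternal and 0.118 over 409 paternal pairs. The points share 2 libraries, and neighbouring pairs share genes.

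**Figure D5:**
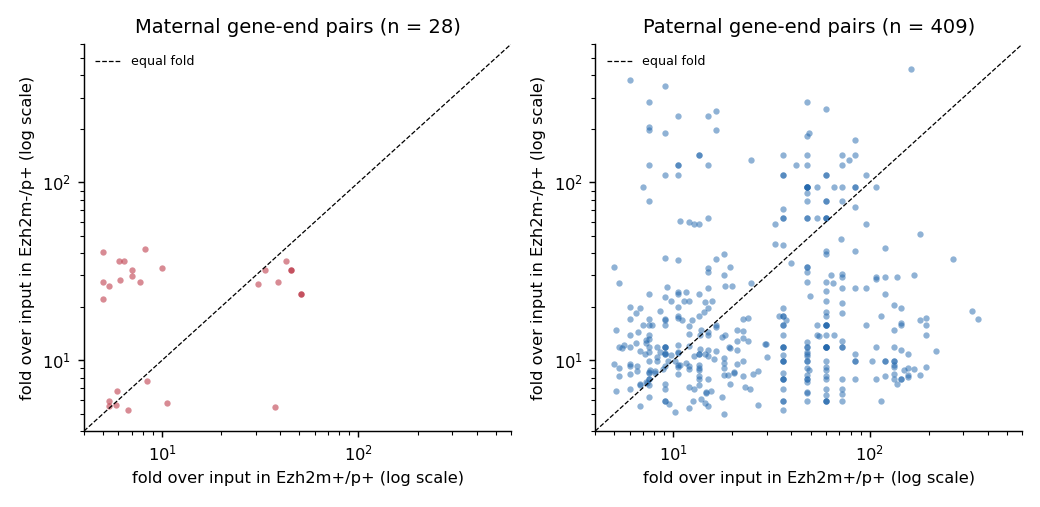
Fold over input in Ezh2m+/p+ (horizontal) and Ezh2m-/p+ zygotes (vertical), both on log scales, for overlapping gene-end peaks; each point is 1 pair and the dashed line marks equal fold. Of the 28 maternal pairs 12 stand at the upper left with only the Ezh2m-/p+ fold at 20 or more, and the 409 paternal pairs spread on both sides of the line.

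By gene, the same difference held. A gene-end peak was found on 273 of 21646 protein-coding genes in the Ezh2m+/p+ maternal list (1.26%), 571 in the Ezh2m+/p+ paternal (2.64%), 403 in the Ezh2m-/p+ maternal (1.86%) and 785 in the Ezh2m-/p+ paternal list (3.63%). Over all gene types the genotypes shared 39 maternal genes (13.9% of the 280 in Ezh2m+/p+ and 9.54% of the 409 in Ezh2m-/p+) and 361 paternal genes (61.0% of 592 and 44.8% of 806). Of 1657 genes in all, 1241 were in 1 list, 402 in 2, 14 in 3 and 0 in all 4.

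The parental genomes shared almost no gene-end peak. In Ezh2m+/p+ zygotes 2 of 290 maternal gene-end peaks overlapped a paternal peak (0.690%, 0.189 to 2.48), where 0.418% of all maternal peaks did. They lay downstream of Zc3h12c (fold 5.86, sharing 599 bp with an intergenic paternal peak of fold 96.3) and in the 3' UTR of Pde6a (7.71, sharing 199 bp with an intronic paternal peak). In the other direction 0 of 702 paternal gene-end peaks overlapped a maternal peak, which allows a share of up to 0.427% when 3 counts are taken as the limit of a count of 0 (the Wilson upper limit is 0.544%), against 0.14% of all paternal peaks. Zc3h12c and Pde6a, like Ldb2 and E2f6, were named after their values were seen.

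In Ezh2m-/p+ zygotes 5 of 424 maternal gene-end peaks overlapped a paternal peak (1.18%, 0.505 to 2.73), where 0.416% of all did. The paternal side had 4 of 970 (0.412%), against 0.18% of all. At chr2:93776001-93777399 a maternal peak in a decay-transcript 3' UTR of Ext2, an enzyme of heparan sulfate synthesis, had a fold of 28.3 and shared 399 bp with a paternal one of 63.0. Ldb2, a cofactor of LIM-domain factors, had a maternal Downstream peak of 22.2 that lay wholly inside a paternal one of 6.57. E2f6, a repressor of the E2F family, had a maternal peak of 34.4 that shared 799 bp with a paternal 3' UTR peak of 17.7 and 1399 bp with a paternal exon peak of 5.73. Slc11a2, the iron transporter DMT1, had the other 2 maternal peaks, of 45.1 and 5.83, which shared 199 and 999 bp with paternal peaks of 8.87 and 40.4.

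Most genes marked in both parental genomes of a library were marked at different places. The Ezh2m+/p+ zygotes had 8 such genes, 2.86% of the maternal and 1.35% of the paternal ones, where 2.64% and 1.26% of all protein-coding genes were marked in the other parental genome, with a median gap of 21601 bp between the closest peaks and 0 overlapping. The Ezh2m-/p+ zygotes had 13, 3.18% and 1.61%, where 3.63% and 1.86% of all were, with a median gap of 6601 bp and 4 overlapping. The lists differ in how much of the genome was read: the authors' coverage table gives a median of 25.0% and 35.5% of a chromosome covered by maternal reads, and 2.18% and 3.17% by paternal reads, in Ezh2m+/p+ and Ezh2m-/p+ zygotes. The part of coverage in the parental difference was not tested.

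The 14 genes in 3 lists were led by Slc11a2, with 2 peaks in each paternal list and 2 in the Ezh2m-/p+ maternal list. Its paternal peaks near chr15:100394401-100399599 had folds of 71.5 in Ezh2m+/p+ and 47.8 in Ezh2m-/p+. Grk3, a kinase of G protein-coupled receptors, had a maternal Downstream peak of 52.3 in Ezh2m+/p+ zygotes, and 50518 and 51318 bp inside the gene paternal peaks of 72.2 and 94.6. Mpp3, a membrane scaffold protein, had paternal Downstream peaks of 60.2 and 63.0 and maternal peaks of 19.9 and 39.8 in Ezh2m-/p+ zygotes.

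Rin2, an exchange factor for Rab GTPases, had paternal folds of 84.3 and 63.0 and a maternal 7.74 in Ezh2m-/p+. Crtc3, a CREB coactivator, reached 60.2 in Ezh2m+/p+ paternal, 21.4 in Ezh2m-/p+ maternal and 18.7 in Ezh2m-/p+ paternal peaks, and Arhgef28 had 48.1, 35.2 and 27.6 in the same lists. Ext2 had 7.52, 28.3 and 63.0 in these lists. Tmem241 was marked in the Ezh2m+/p+ maternal (5.70), Ezh2m+/p+ paternal (72.2) and Ezh2m-/p+ maternal list (29.8), each time in a 3' UTR of decay transcripts. The remaining genes were Babam2, Antxr1, Tbc1d5, Mad1l1, Runx1 and Zfp341.

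Gene lists were read against 7.44% of all protein-coding genes, which had a gene-end peak in at least 1 of the 4 lists. Of 33 genes of PRC2 and of H3K27 regulation, 1 had one (3.03%): Aebp2, an accessory subunit of PRC2, with a 3' UTR peak of fold 60.4 and 6199 bp at chr6:140671801-140677999 in the Ezh2m-/p+ maternal list. Of 26 genes imprinted by maternal H3K27me3, where the egg's mark silences the maternal copy without DNA methylation, 5 had one (19.2%). Of 58 other imprinted genes 4 did (6.90%), and of 48 oocyte and maternal-effect genes 3 (6.25%). With so few genes nothing is called particular to any of these lists.

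The 5 genes imprinted by H3K27me3 were marked in different lists. E2f3, a cell cycle factor, had a maternal Downstream peak of 57.4 in Ezh2m-/p+ zygotes, and Tle3, a corepressor, a maternal 3' UTR peak of 45.9. Epas1, a hypoxia-inducible factor, had a paternal peak of 189 in Ezh2m-/p+ zygotes at chr17:86833001-86835799. Runx1, a factor of blood formation, had a paternal Downstream peak in each genotype, of 36.1 in Ezh2m+/p+ and 6.90 in Ezh2m-/p+. Its maternal 3' UTR peak of 18.4 in Ezh2m-/p+ zygotes lay 86334 bp before the outermost end. Sfmbt2, a Polycomb protein, had a maternal peak of 5.53 in Ezh2m+/p+ zygotes.

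Among the other imprinted genes, H13, a signal peptide peptidase, had paternal 3' UTR peaks of 10.5 and 8.37 in the Ezh2m+/p+ and Ezh2m-/p+ zygotes. Slc22a18 (9.05), Cobl (6.53) and Blcap (6.20) had maternal peaks in Ezh2m+/p+ zygotes, and the list named Phlda2 for that of Slc22a18. Of the oocyte genes, Zp2, a protein of the zona pellucida, had paternal peaks of 169 and 30.2 in the Ezh2m+/p+ and Ezh2m-/p+ zygotes. Dnmt3a, a de novo DNA methyltransferase, had a maternal peak of 58.9 in Ezh2m-/p+ zygotes, 37243 bp before its outermost end, and Nlrp4f a paternal one of 5.91.

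Of 218 patterning transcription factors 14 were marked (6.42%) and of 130 Wnt, Fgf, Bmp and Notch signalling genes 12 (9.23%). The factors included Otx2, a homeobox gene of the forebrain, with a paternal Downstream peak of 189 in Ezh2m-/p+ zygotes. Pax7, a paired-box gene of muscle and neural crest, had paternal peaks at its 3' UTR of 42.1 and 7.02 in Ezh2m+/p+ zygotes and of 126 in Ezh2m-/p+. Among the signalling genes Shh, a morphogen, had a paternal Downstream peak of 110 in Ezh2m-/p+ zygotes. The Wnt receptor Fzd4 had paternal peaks of 48.1 and 181 in the Ezh2m+/p+ and Ezh2m-/p+ zygotes, and Wnt4 13.5 and 17.7. Wnt2b had one of the 28 maternal pairs, Downstream peaks of 5.86 and 6.69. These examples were chosen after their values were seen.

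Solute carriers (39 of 385, 10.1%), zinc finger protein genes (43 of 468, 9.19%), ion channel and neurotransmitter receptor genes (22 of 248, 8.87%), adhesion and matrix genes (17 of 193, 8.81%) and axon guidance genes (7 of 85, 8.24%) had shares above the background of 7.44%, without a test of the difference. Of the olfactory and vomeronasal receptor genes 44 of 1463 were marked (3.01%), of which 28 were in the Ezh2m-/p+ paternal and 19 in the Ezh2m+/p+ paternal list. Of 82 histone genes 1, H2afv, was marked (1.22%). Some lists were built from name patterns and took in a few genes of other families, such as Gatad2a among the patterning factors, Htra3 among the receptors and Colec11, Cdhr1 and Cdhr3 among the matrix genes.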

How the data were processed

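H3K27me2 and input libraries of zygotes of both genotypes had been sequenced. Per the submitters' processing notes, reads were trimmed (Trimmomatic 0.38), aligned to mm10 (Bowtie2) and freed of duplicates (Picard). The authors assigned reads to C57BL/6 or PWK with SNPsplit, called peaks per library and parental genome with SICER, filtered them (length over 1000 bp, fold over 5) and used ChIPseeker for the annotation. The deposited lists give for each peak a ratio of H3K27me2 to input reads, called fold here, and its length in bp (999 bp at the shortest). The deposited coverage table gives the fraction of a chromosome covered, shown here as percent. Only reads over strain differences can be assigned, which may thin peaks in stretches with few of them. Read totals per parental genome are not analysed here, so the depth behind a peak is unknown. For whole libraries, the paper reports a lower sequencing depth in Ezh2m-/p+ than in Ezh2m+/p+ zygotes, for H3K27me2 and for input. The part of depth in the differences between genotypes was not tested.

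Overlap meant at least 1 shared bp, with 95% Wilson intervals that cover counting error only. Peaks of 1 list share a library and are not replicates. Genes, transcript ends and 3' UTRs were taken from GENCODE vM21, bases from GRCm38, and no sequence of chromosome 18 is printed. Scripts ran in Python 3.11.15 with scipy 1.17.1, pandas 2.3.3, matplotlib 3.10.9 and numpy 2.4.6. Both the overlap and interval functions were tested on simulated data. The members and gene lists were chosen with earlier results of these data known. Genes named were, per list, the 5 gene-end peaks of largest fold and the longest, per parental genome the 8 recurrent pairs with the largest smaller fold, the 8 genes in most lists, and up to 12 genes of the PRC2, imprinted and oocyte lists. Some genes this rule takes are not reported here. Others are said to have been chosen after their values were seen, and Sfmbt2, the 13th of the last group, was added to complete its list. Alternatives were autosomes only, peak centres, lists cut to equal size, a length over 2000 bp, a fold over 10, a reciprocal overlap of 50%, the other list as denominator, gene-end partners only, 3' UTRs only, a match by listed gene and any peak over a gene end.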

Additional observations from a re-analysis of the deposited data

Results flagged for a closer look

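The genotype contrast ran in opposite directions in the maternal and paternal lists for the gene-end share, and the difference was not tested, since each genotype had 1 library. The share in Ezh2m-/p+ minus that in Ezh2m+/p+ zygotes was -0.635 percentage points in the maternal and 0.320 points in the paternal lists. With lists cut to equal size by fold both were negative, -0.627 and -0.313 points.

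The median fold of gene-end peaks also moved in opposite directions, and this difference was not tested either. On the log2 scale Ezh2m-/p+ over Ezh2m+/p+ was 1.74 for the maternal and -1.39 for the paternal gene-end peaks. All peaks of the lists moved alike, by 1.69 and -1.20. Over overlapping gene-end peaks of the 2 genotypes the median log2 ratio was 0.10 in 28 maternal and -0.41 in 409 paternal pairs.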

How the results depend on the processing

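Of 55 alternative values, 21 stayed inside the 95% interval of the value they varied and 34 did not. Values below are in the order Ezh2m+/p+ maternal, Ezh2m+/p+ paternal, Ezh2m-/p+ maternal, Ezh2m-/p+ paternal. The gene-end share became 3.80%, 3.53%, 3.66% and 3.65% with peak centres, and 3.95%, 3.21%, 3.45% and 3.42% without peaks that touch 3' UTRs of decay transcripts only. It was 2.14%, 2.69%, 1.84% and 2.92% when any peak over a protein-coding gene end counted, whatever its annotation. The last 2 choices were made after seeing the data. With a length over 2000 bp the paternal shares were 4.81% and 4.87%, and with lists cut to the size of the shortest, the Ezh2m+/p+ maternal list, the Ezh2m-/p+ paternal share was 3.53%. Maternal recurrence was 6.84% with a length over 2000 bp, 5.52% with a reciprocal overlap of 50%, 7.55% with Ezh2m-/p+ as denominator and 16.2% by listed gene. Paternal recurrence was 47.3% with a fold over 10, 81.6% with a length over 2000 bp, 36.3% with the reciprocal overlap, 50.1% with the other denominator, 57.1% with gene-end partners and 65.0% by listed gene. For recurrence and for the overlaps that follow, shares over all peaks were not computed at the fold, length, reciprocal-overlap and listed-gene settings. The overlap of the parental genomes was 0 in Ezh2m+/p+ zygotes with a fold over 10, a length over 2000 bp, the reciprocal overlap and the paternal denominator, and 3.45% by listed gene. In Ezh2m-/p+ zygotes it was 0.405% with a length over 2000 bp, 0 with the reciprocal overlap, 0.412% with the paternal denominator and 3.77% by listed gene. The cause was not tested. No paired analysis was possible because each genotype has 1 library.

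The maternal minus paternal share was from 0.263 to 1.20 points in Ezh2m+/p+ zygotes under the alternatives, except that it turned to -0.546 with any peak over a protein-coding gene end. It was also negative among peaks over 4000 bp (5.35% against 6.44%). In Ezh2m-/p+ zygotes it turned negative with any peak over a gene end (-1.08), with autosomes only (-0.0294) and with a length over 2000 bp (-0.0349), and was 0.888 points with lists of equal size. The lists carry no read counts, so differences between genotypes are limited by 1 library each.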
